A study of Mus musculus with 4 samples.

Results

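Levels of 7 genes in virgin mammary tissue were compared between mice with and without *miR-21*: *Olfm4*, *Ltf*, *Pigr*, *Muc1*, *Aqp5*, *Cftr* and *Ptpn5*. *Olfm4* and *Ptpn5* were selected on their FPKM values (a fragment count scaled to transcript length and to the size of the library) in the same samples, as 2 of the largest rises in *miR-21-/-* tissue, and the other 5 were added as genes of secretory epithelium. All differences given here between genotypes are therefore descriptions without a test. Each of the 7 names has a single row of its own among the 30506 loci of the deposited table, of which 22483 carry a gene name. The table was made from poly(A) RNA of 4 mice on the mixed background 129SV::FVB/N::C57BL/6, all 2 months old, 2 of them *miR-21+/+* and 2 *miR-21-/-*. The knockout allele was present throughout the animal and no Cre line is part of these groups, so epithelium, fat and immune cells of the gland all lacked the microRNA. The tissue came as a whole gland, and a lower value can mean fewer cells of a type or less RNA per cell, which cannot be told apart. Each genotype has a single FPKM value that combines its 2 mice, so there is no spread between mice for any value, the depth behind it is unknown, and no p-value is given.

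Ducts of the mammary gland are lined by luminal epithelial cells that secrete into the lumen, and outside lactation these cells make a thin fluid with defence proteins rather than milk. The genes serve different steps of this secretion. *Olfm4* encodes olfactomedin 4, a secreted glycoprotein known from intestinal crypts and from neutrophil granules, and *Ltf* encodes lactoferrin, an iron-binding antimicrobial protein of milk and of neutrophil granules. *Pigr* encodes the receptor that carries polymeric immunoglobulin A across the epithelium, *Muc1* an apical membrane mucin, *Aqp5* a water channel of secretory glands and *Cftr* the chloride channel mutated in cystic fibrosis. *Ptpn5* does not belong to this set by function: it encodes STEP, a tyrosine phosphatase best known from neurons of the striatum that acts on MAP kinases.

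MicroRNAs pair through their seed with sites in 3′ UTRs and lower the level of the messenger RNA, so the 3′ UTRs of the 7 genes were searched for the miR-21 seed. The mature miR-21 (chromosome 11, 86584120 to 86584141, minus strand, RefSeq on GRCm38.p6) is shown because its bases 2 to 8, in capitals, define the match searched for.
miR-21: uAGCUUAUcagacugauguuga
When the longest 3′ UTR annotated for a gene was taken (GENCODE on mm9), a match to bases 2 to 8 was found for 1 of the 7 genes, *Cftr*, compared with 6.10% of 19915 genes. The match lies at chromosome 6, 18218336 to 18218342, in a transcript annotated for nonsense-mediated decay, and the same bases are coding exon in the full-length *Cftr* transcript of 27 exons. Shorter matches were searched for bases 2 to 7 of the microRNA alone. *Cftr* also held such a match of 6 bases at chromosome 6, 18272692 to 18272697, within the 3′ UTR of the full-length transcript. *Ptpn5* held a match of 6 bases in its last exon, at chromosome 7, 54333754 to 54333759, on the minus strand. Matches to these 6 bases, alone or within a longer match, occur in 20.8% of genes. The *Cftr* match to bases 2 to 8 and the *Ptpn5* match are printed in the direction of the transcript, with matching bases in capitals. The *Cftr* stretch runs from 18218325 to 18218354 and the *Ptpn5* stretch from 54333742 to 54333771.
Cftr: tagtccctcagATAAGCTtaaatgaagtgg
Ptpn5: ggagcactgaacTAAGCTctcacccctcag
No match to bases 2 to 7 was present in the annotated 3′ UTRs of *Olfm4* (930 nt), *Ltf* (584 nt), *Pigr* (1353 nt), *Muc1* (283 nt) or *Aqp5* (509 nt). Other runs of 6 seed bases were not searched. The 3′ UTR of *Ptpn5* has 1027 nt.

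Because the study concerns STAT5, the promoters of the 7 genes, from 250 bases before to 50 bases after the start site (RefSeq, GRCm38.p6), were searched for the STAT5 binding motif TTCNNNGAA, which reads the same on both strands. *Pigr* held a match, 40 to 48 bases after its start, and the others held none, while 8.30% of all 32841 promoter windows held one. The stretch lies on chromosome 1, 130826704 to 130826733, plus strand, and the motif is in capitals.
Pigr: aatagtcaccagtagtgccTTCCTGGAAgc
A TATAA box, searched on the sense strand between positions −45 and −10 relative to the start, was present in the promoters of *Olfm4* and *Muc1* and in 4.19% of all windows. This search was added after the promoter sequences had been seen. The windows are on chromosome 14, 80000258 to 80000287, plus strand, for *Olfm4* and on chromosome 3, 89229013 to 89229042, plus strand, for *Muc1*, with the box in capitals. That of *Ltf*, on chromosome 9 from 111019250 to 111019279, plus strand, has no such box and is shown for comparison.
Olfm4: cccactgggagcTATAAgaagccctgagac
Muc1: gagggggactggTATAAagcagcaggcacc
Ltf: cacccagcacagataaagggccccggggag
The promoters fell into different classes of base composition. That of *Aqp5* was 79.7% G or C with 46 CpG dinucleotides, and that of *Cftr* 71.3% with 31. The windows of *Olfm4*, *Ltf*, *Pigr* and *Muc1* were 49.0% to 58.7% G or C with 4 to 6 CpG dinucleotides, near the median of all windows, 52.7% and 7. *Ptpn5* has 2 annotated starts, one with 48.7% and 6 CpG dinucleotides and one with 69.0% and 24, and the table does not say which was used. These matches and contents describe the sequences only.

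The levels of the 7 genes differed widely. In *miR-21+/+* tissue the order from high to low was *Ltf* (99.6 FPKM), *Aqp5* (54.6), *Muc1* (4.09), *Olfm4* (0.334), *Pigr* (0.236), *Ptpn5* (0.223) and *Cftr* (0.00932). FPKM is a value per transcript length, so these levels can be set side by side. In *miR-21-/-* tissue the order was *Aqp5* (69.7 FPKM), *Ltf* (36.6), *Muc1* (8.21), *Olfm4* (6.71), *Ptpn5* (6.31), *Pigr* (0.600) and *Cftr* (0.0101). Whether neighbours in these orders differ beyond the spread between mice could not be assessed. *Ltf* and *Aqp5* made up 96.9% of the summed FPKM of the 7 genes in *miR-21+/+* and 83.0% in *miR-21-/-* tissue. The sum itself was 159 FPKM in *miR-21+/+* and 128 FPKM in *miR-21-/-* tissue. Without *Ltf* it was 59.5 and 91.5 FPKM.

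**Figure D1:**
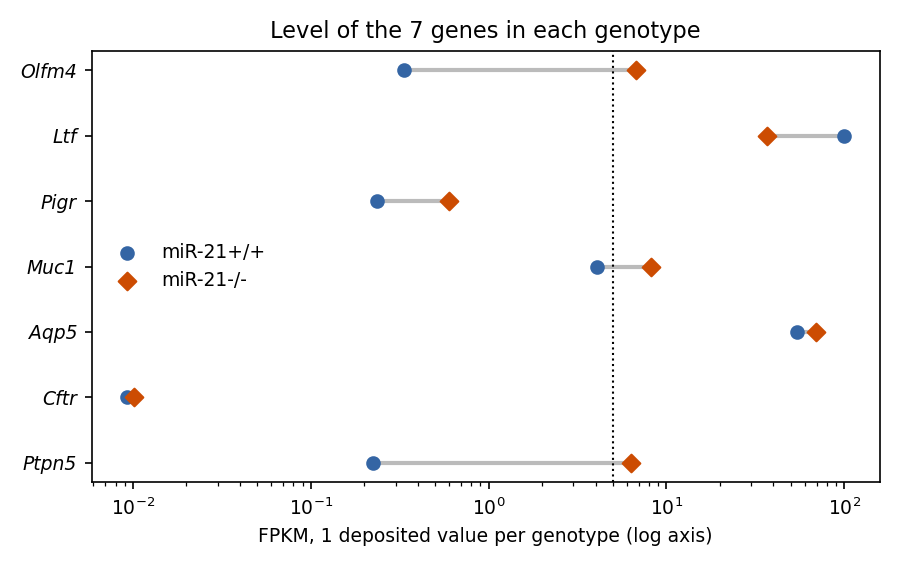
FPKM of each of the 7 genes (log axis) in *miR-21+/+* (circles) and *miR-21-/-* tissue (diamonds), 1 deposited value per genotype, with the 5 FPKM minimum dotted. *Olfm4* and *Ptpn5* move from below 1 to above 5 FPKM, *Ltf* moves down from 99.6 to 36.6, and *Cftr* stays near 0.01 FPKM.

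Differences are given as the log2 ratio of the *miR-21-/-* over the *miR-21+/+* FPKM, with no pseudocount. The table's loci were counted as higher or lower at a ratio of 2-fold or more if they exceeded 5 FPKM in at least 1 genotype, the study's own minimum. Of 9661 such loci with a gene name, 121 (1.25%) were higher and 138 (1.43%) lower in *miR-21-/-* tissue. Of the 7 genes, 5 passed the minimum, and 3 of these were higher (*Olfm4*, *Ptpn5*, *Muc1*) and 1 lower (*Ltf*). Nothing can be read from these counts, because the choice of genes used the same values, and because *Olfm4*, *Muc1* and *Ptpn5* passed the minimum only through the genotype in which they were high. *Pigr* and *Cftr* stayed below 1 FPKM in both genotypes. The median log2 ratio over all 9661 loci was −0.03. Scaling both columns to equal sums over all loci lowered every log2 ratio by 0.63, since the total FPKM of all loci was 759295 for *miR-21+/+* and 1175603 for *miR-21-/-* tissue. Over the named loci alone the sums were 380567 and 355385, and scaling to these raised every log2 ratio by 0.10. The rise of the total over all loci therefore lies in loci without a gene name.

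**Figure D2:**
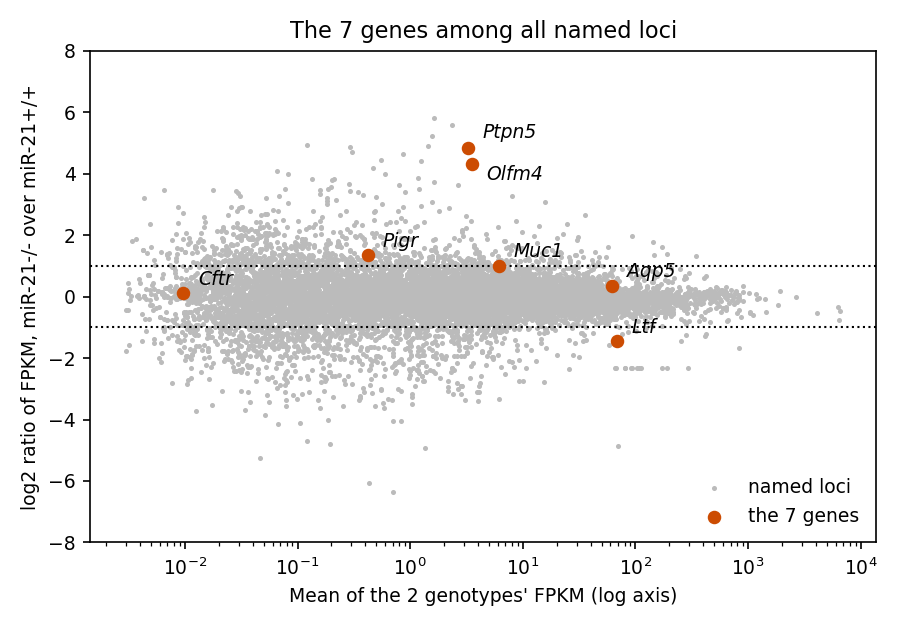
log2 ratio of FPKM (*miR-21-/-* over *miR-21+/+*) against the mean FPKM of both genotypes (log axis) for the named loci (grey) and the 7 genes (orange), with 2-fold limits dotted. *Ptpn5* and *Olfm4*, chosen for their rise, stand above nearly all loci of their level, and *Ltf* below nearly all of its level. *Cftr* lies at the low end, where the grey points spread widely.

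Among the secreted defence proteins, *Olfm4* was higher and *Ltf* lower in the absence of *miR-21*. *Olfm4* (ENSMUSG00000022026.5; mm9 chromosome 14, 80400109 to 80422856, plus strand, 5 exons) had 0.334 FPKM in *miR-21+/+* and 6.71 FPKM in *miR-21-/-* tissue, a log2 ratio of 4.33 or 20.1-fold. In the first genotype 33.9% of named loci had a lower value than *Olfm4*, and in the second 62.9%. Its mean level lay in the class of 1 to 5 FPKM, whose 3737 loci had an interquartile range of log2 ratios from −0.26 to 0.20. Of these loci 6 exceeded *Olfm4*, a place that follows from its choice by the same values. With a pseudocount of 1 its log2 ratio was 2.53. *Ltf* (ENSMUSG00000032496.3; chromosome 9, 110921776 to 110948430, plus strand, 17 exons) had 99.6 FPKM in *miR-21+/+* and 36.6 FPKM in *miR-21-/-* tissue, a log2 ratio of −1.44, so that it was 2.72-fold higher in *miR-21+/+* tissue. In the class of 20 to 100 FPKM, with 2948 loci and an interquartile range from −0.17 to 0.06, 15 loci had a lower ratio.

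Other secreted defence proteins went in both directions. Of a list of 21, which includes *Olfm4* and *Ltf*, 15 exceeded 1 FPKM in at least 1 genotype. Of these 5 were higher and 2 lower at 2-fold, beside 2.08% and 2.53% of the 13336 named loci above 1 FPKM. *Olfm4*, chosen for its rise, is among the 5 and passed 1 FPKM only through *miR-21-/-* tissue, and *Ltf* is among the 2. Of the 13 others, 4 were higher and 1 lower. The median log2 ratio of the 15 was 0.30, or −0.33 with the columns scaled to equal sums over all loci. The highest after *Olfm4* was *Dmbt1*, a mucosal scavenger protein, with 8.0 FPKM in *miR-21+/+* and 41.0 FPKM in *miR-21-/-* tissue. *Wfdc18* (listed as *Expi*), a whey acidic protein family member, had 106 and 278 FPKM, the lipopolysaccharide-binding protein gene *Lbp* 11.9 and 32.0 FPKM, and the chitinase-like *Chi3l1* 16.2 and 41.5 FPKM. The lowest was the antibacterial lectin *Reg3g*, with 7.26 FPKM in *miR-21+/+* and 0.852 FPKM in *miR-21-/-* tissue. The most abundant, lysozyme *Lyz2* and haptoglobin *Hp*, had log2 ratios of −0.25 and 0.30. Lactoferrin was thus lower while several other defence proteins were higher.
The relatives of both genes by family differed less between genotypes, which for *Olfm4* follows from its choice by its ratio. Of the olfactomedin family, 8 of 10 genes exceeded 1 FPKM. The 7 other than *Olfm4* had a median log2 ratio of 0.14, with 6 of them higher in *miR-21-/-* tissue. None was past 2-fold in either direction, a count near the shares of all named loci above 1 FPKM, 2.08% higher and 2.53% lower. The 3 most abundant were *Olfml3* at 0.19, *Olfml1* at 0.13 and *Olfml2b* at −0.31. *Olfm3* was listed at 0 in both genotypes. Among the transferrin family and receptor, *Trf*, the serum iron carrier, had 676 FPKM in *miR-21+/+* and 520 FPKM in *miR-21-/-* tissue, a log2 ratio of −0.38. The transferrin receptor *Tfrc* had a log2 ratio of −0.30 and the membrane transferrin *Mfi2*, at 0.578 and 1.20 FPKM, one of 1.05. *Mfi2* passed 1 FPKM only through *miR-21-/-* tissue. The 4 genes of this group had a median of −0.34.

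Neutrophils store both lactoferrin and olfactomedin 4, so neutrophil genes were examined beside them. Of 9 such markers found in the table, 5 exceeded 1 FPKM, with a median log2 ratio of −0.09, and the FPKM of the list added up to 18.2 without and 24.6 with the deletion. Of the 5, *Mmp9* and *Retnlg* were higher in *miR-21-/-* tissue and the other 3 lower. Only *Mmp9* and *Retnlg*, the 2 most abundant of the list, exceeded 5 FPKM, and the median of these 2 genes was 0.76. Of the granule genes, *Elane* had 1.52 and 1.42 FPKM. *Ngp*, *Camp* and *Mpo* were all under 0.3 FPKM in both genotypes, with log2 ratios of −2.79, −1.79 and −2.53. *S100a9*, abundant in neutrophils, had 2.24 and 0.695 FPKM, whereas *Mmp9* had 6.45 and 9.32 FPKM and *Retnlg* 6.10 and 12.1 FPKM. No gene of the list was at 0 in either genotype. The part of neutrophils in the values of *Ltf* and *Olfm4* was not tested. Milk protein genes were examined for *Ltf* as well. Of 6 above 1 FPKM, 3 were lower by 2-fold or more and none higher, beside 2.53% and 2.08% of all named loci above 1 FPKM, with a median of −0.80. *Csn2* had 14.8 and 7.21 FPKM, *Csn1s2a* 13.3 and 4.44 FPKM and *Wap* 7.09 and 2.54 FPKM, while *Csn3*, the most abundant, had 73.2 and 79.0 FPKM and *Csn1s1* 8.33 and 11.7 FPKM. *Ltf* was therefore lower together with *Csn2*, *Csn1s2a* and *Wap* but not with *Csn3*. The part of milk gene expression in the value of *Ltf* was not tested.

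*Pigr*, the immunoglobulin A receptor (ENSMUSG00000026417.7; chromosome 1, 132723261 to 132748826, plus strand, 11 exons), was barely expressed in this virgin tissue, with 0.236 FPKM in *miR-21+/+* and 0.600 FPKM in *miR-21-/-* samples. The log2 ratio was 1.35 as a plain ratio and 0.37 with a pseudocount of 1. At this level, up to 1 FPKM, the 4654 named loci with a finite ratio had an interquartile range from −0.54 to 0.50, and 343 of them exceeded *Pigr*. The genes listed with *Pigr* for immunoglobulins and their transport had no counterpart to it. Of a list of 8, which includes *Pigr*, 3 exceeded 1 FPKM and all 3 were lower in *miR-21-/-* tissue, with a median log2 ratio of −0.91. They were *Fcgrt*, the neonatal Fc receptor, with 161 and 124 FPKM, the immunoglobulin J chain *Igj* with 2.14 and 1.14 FPKM, and *2010001M09Rik* with 1.17 and 0.253 FPKM. *Ccl28*, the chemokine that draws plasma cells to the lactating gland, was listed at 0 in both genotypes. B and plasma cell markers were lower in *miR-21-/-* tissue, all 5 above 1 FPKM, with a median of −2.09, or −2.72 over those above 5 FPKM. *Cd79b*, part of the B cell receptor, had 12.3 FPKM in *miR-21+/+* and 2.88 FPKM in *miR-21-/-* tissue. *Cd79a* is merged with *Arhgef1* in the table, and this locus had 70.3 and 48.3 FPKM.

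*Muc1*, the apical mucin (ENSMUSG00000042784.3; chromosome 3, 89032974 to 89037291, plus strand, 7 exons), had 4.09 FPKM in *miR-21+/+* and 8.21 FPKM in *miR-21-/-* tissue. This is a log2 ratio of 1.00, at the very limit used, and the lowest of the 121 loci counted as higher. With a pseudocount of 1 it was 0.85 and with the columns scaled to equal sums over all loci 0.37, in both cases under 2-fold. Of the 5862 named loci of 5 to 20 FPKM, whose interquartile range was −0.14 to 0.09, 56 had a higher ratio. Mucins went in both directions. Of 11 found in the table, 5 exceeded 1 FPKM, of which 4, *Muc1* included, were higher and 1 lower at 2-fold, beside 2.08% and 2.53% of all named loci above 1 FPKM, and the median log2 ratio was 1.12, or 0.49 with the columns scaled to equal sums over all loci. *Muc15*, a membrane mucin of the milk fat globule, had 12.6 FPKM in *miR-21+/+* and 48.6 FPKM in *miR-21-/-* tissue, above *Muc1* in both. *Muc20* had 2.66 and 5.77 FPKM and *Muc4*, a membrane partner of ErbB receptors, 0.455 and 3.14 FPKM, so that *Muc4* passed 1 FPKM only through *miR-21-/-* tissue. *Muc13*, a mucin of the intestine, went the other way, with 1.93 and 0.373 FPKM. The gel-forming mucins *Muc2*, *Muc5ac*, *Muc5b* and *Muc6* stayed below 0.5 FPKM in both genotypes.

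*Aqp5* differed least of the 5 genes above the minimum. This water channel (ENSMUSG00000044217.9; chromosome 15, 99421459 to 99429120, 4 exons, plus strand) had 54.6 FPKM in *miR-21+/+* and 69.7 FPKM in *miR-21-/-* tissue. The log2 ratio was 0.35, 1.28-fold. It turned to −0.28 when the columns were scaled to equal sums over all loci and was 0.45 with equal sums over named loci. In the class of 20 to 100 FPKM, 181 of 2948 loci had a higher ratio. The other aquaporins above 1 FPKM were *Aqp1* of vessels and red cells with 144 and 180 FPKM, *Aqp7* of adipocytes with 45.5 and 32.2 FPKM, and *Aqp11* with 5.96 and 3.15 FPKM. None was past 2-fold, beside 2.08% higher and 2.53% lower among all named loci above 1 FPKM. The 4 had a median log2 ratio of −0.09. *Aqp2* and *Aqp6*, which flank *Aqp5* within 6.48 kb and 2.71 kb, were at 0.606 and 0.698 FPKM and at 0.0174 and 0.0246 FPKM. *Aqp5* was thus the one channel of this gene cluster above 1 FPKM.

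*Cftr* (ENSMUSG00000041301.8; chromosome 6, 18120687 to 18272769, plus strand, 27 exons) was close to absent in the tissue of both genotypes. It had 0.00932 FPKM in *miR-21+/+* and 0.0101 FPKM in *miR-21-/-* samples, and 17.9% and 18.5% of named loci had lower values. Its log2 ratio was 0.12, exceeded by 1958 of the 4654 loci up to 1 FPKM, and its sign turned when the columns were scaled to equal sums over all loci. Other genes of chloride, sodium and bicarbonate transport were well expressed. Of a list of 22, which includes *Cftr*, 14 loci exceeded 1 FPKM, 2 of them higher at 2-fold and none lower, beside 2.08% and 2.53% of all named loci above 1 FPKM, with a median log2 ratio of 0.11, or −0.61 with the columns scaled to equal sums over all loci. *Slc12a2*, the basolateral sodium, potassium and chloride cotransporter, had 136 FPKM in *miR-21+/+* and 155 FPKM in *miR-21-/-* tissue. *Ano1*, a calcium-activated chloride channel, had 32.6 and 48.0 FPKM, and *Fxyd3*, a regulator of the sodium pump, 54.2 and 81.9 FPKM. The merged locus of *Clca1*, *Clca2* and *Clca4* had 69.5 and 45.9 FPKM. The 2 higher genes were subunits of the epithelial sodium channel, *Scnn1b* with 1.97 and 5.76 FPKM and *Scnn1g* with 0.340 and 1.08 FPKM, the latter past 1 FPKM only through *miR-21-/-* tissue, while their partner *Scnn1a* had a log2 ratio of −0.88.

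*Ptpn5*, chosen for its rise on these values, had the largest plain ratio of the 9661 named loci above the minimum, but not the largest with a pseudocount of 1. The gene (ENSMUSG00000030854.9; chromosome 7, 54333170 to 54389054, minus strand, 14 exons) had 0.223 FPKM in *miR-21+/+* and 6.31 FPKM in *miR-21-/-* tissue, a log2 ratio of 4.82 or 28.2-fold, and 2.58 with a pseudocount of 1. In its class of 1 to 5 FPKM, 4 of 3737 loci had a higher ratio, a place that follows from the same choice. Outside the 2 chosen for their rise, the next locus by plain ratio was *Tph1*, the enzyme of peripheral serotonin synthesis, with 1.5 and 14.6 FPKM and a log2 ratio of 3.29. With a pseudocount of 1, *Cxcl15* (3.31 and 28.2 FPKM) had a log2 ratio of 2.76 and *Tph1* one of 2.64. Both were then above *Ptpn5* and *Olfm4*. The related phosphatases that bind the same kinases had lower values in *miR-21-/-* tissue, within the interquartile range of loci of their level. *Ptpn7*, of blood cells, had a log2 ratio of −0.23, in a range of −0.26 to 0.20 for 1 to 5 FPKM. *Ptprr*, below 1 FPKM in both genotypes, had one of −0.47, in a range of −0.54 to 0.50 for up to 1 FPKM. Of the kinases on which STEP acts, *Mapk3* (merged with *Gdpd3*) had a log2 ratio of 0.05 and *Mapk14* (p38) one of −0.12, and the 6 expressed genes of the list other than *Ptpn5* had a median of −0.14. As *Ptpn5* is known from neurons, neuronal markers were counted beside it. Of 8, 3 exceeded 1 FPKM, *Map2* (listed as *Mtap2*) at −0.20, *Camk2a* at 0.48 and *Stmn2* at −0.82, and the FPKM of the list added up to 15.0 without and 13.5 with the deletion. None was at 0.

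*Olfm4* and *Ptpn5* were each the other's nearest locus, which their choice as 2 of the largest rises on these same values makes likely by construction. By the distance over log2(FPKM + 1) in both genotypes, with 2 values per locus, they were 0.148 apart among 21895 distinct named loci. The next for both was *Mmd2*, with 0.395 FPKM in *miR-21+/+* and 4.94 FPKM in *miR-21-/-* tissue, at 0.383 from *Olfm4* and 0.354 from *Ptpn5*. The third was the locus of the microRNA gene *Mir1896*, with 0.0963 and 4.59 FPKM. This locus stayed below 5 FPKM, and its log2 ratio of 5.57 was above those of *Olfm4* and *Ptpn5*. Only 3 named loci went from at most 1 FPKM in *miR-21+/+* to above 5 FPKM in *miR-21-/-* tissue, namely *Ptpn5*, *Olfm4* and *Defb1*, an epithelial defensin with 0.879 and 5.43 FPKM. The place of *Ptpn5* and *Olfm4* in this count follows from how they were chosen. The opposite, above 5 to at most 1 FPKM, was seen for 12.

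The 7 genes lie on 7 chromosomes, and named loci within 500 kb of them were examined to see whether a ratio extended over a region. Around *Olfm4*, 4 loci exceeded 1 FPKM and had log2 ratios from −0.04 to 0.05. Around *Ptpn5*, 10 did, with a median of 0.01. The nearest of these, *Tmem86a*, at 23.0 kb, had 16.1 FPKM in *miR-21+/+* and 25.5 FPKM in *miR-21-/-* tissue, a log2 ratio of 0.66. *Tph1*, the third largest rise above the minimum, lies 405 kb from *Ptpn5* on the same chromosome, and the other 9 loci of the window had log2 ratios under 2-fold. Around *Muc1*, 30 loci had a median of −0.03, and none was past 2-fold, beside 2.08% higher and 2.53% lower among all named loci above 1 FPKM. The neighbour *Trim46*, which begins 0.808 kb after *Muc1* and does not overlap it, had 3.89 and 6.98 FPKM, a log2 ratio of 0.85, whereas *Thbs3* on the other side had 0.00. The other named loci of this window above 1 FPKM reached at most 0.36.
Around *Ltf*, 12 loci had a median of 0.04, with *Myl3* at 1.16 and *Tmie* at −1.05 past 2-fold. Its nearest neighbours were *Ccrl2* at 0.42 and *Rtp3* at −0.40. Around *Pigr*, 12 loci had a median of −0.16, and the next gene, *Faim3*, a B cell gene 13.5 kb away, had 5.06 and 0.558 FPKM, a log2 ratio of −3.18. Around *Aqp5*, 16 loci had a median close to 0, and *Faim2*, at 63.0 kb, had 1.04 and 4.72 FPKM, a log2 ratio of 2.18. *Cftr* had 2 such neighbours, *Wnt2* at −1.43 and *St7* at −0.27. Loci without a gene name in these windows reached at most 9.01 FPKM, and none was above 5 FPKM and 2-fold higher in *miR-21-/-* tissue.

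**Figure D3:**
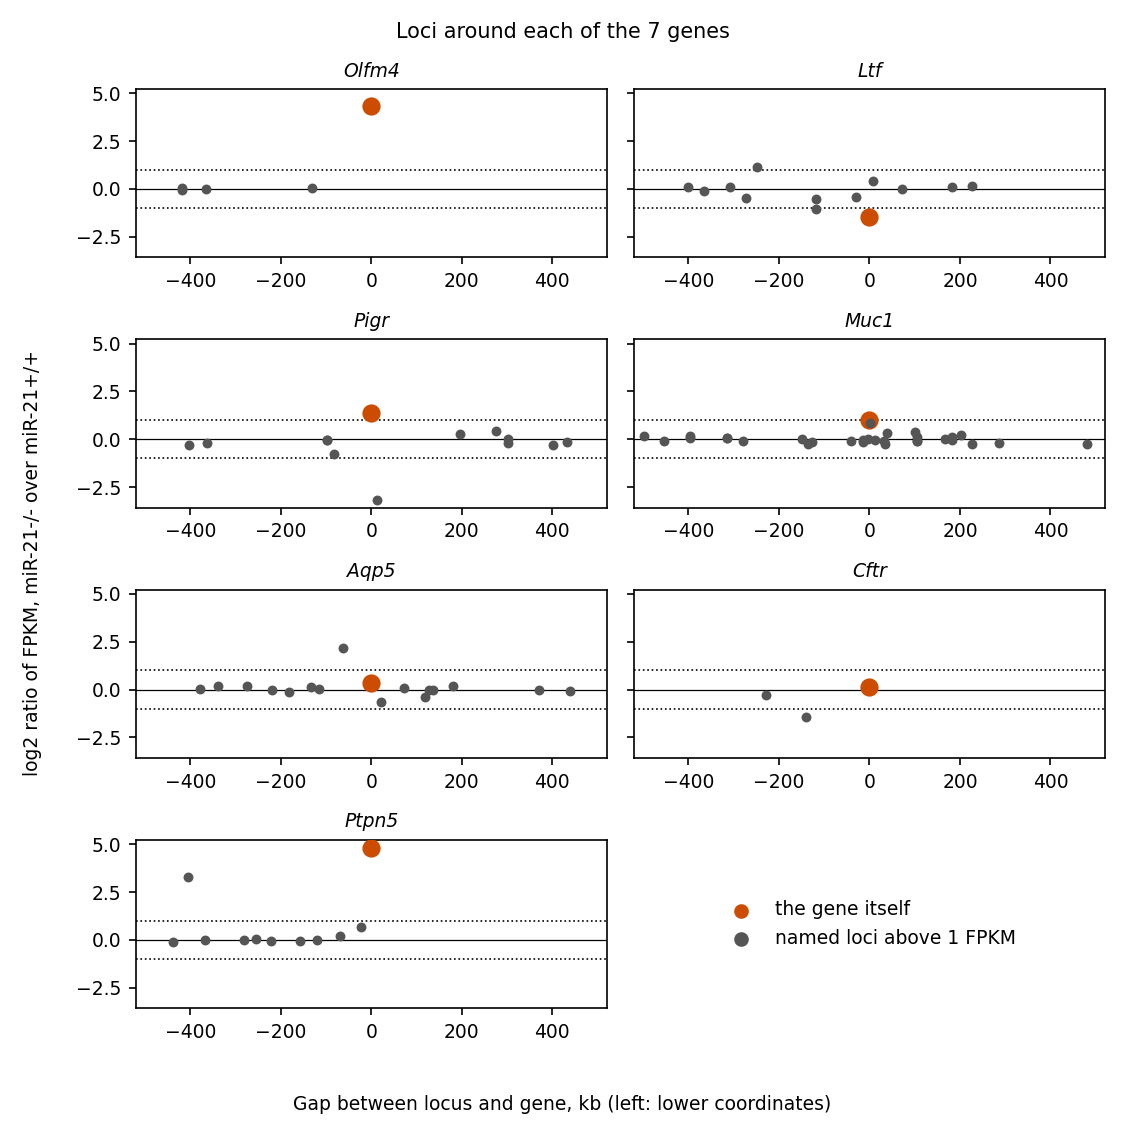
log2 ratio of FPKM (*miR-21-/-* over *miR-21+/+*) of each of the 7 genes (orange) and of named loci above 1 FPKM within 500 kb (grey), against the gap in kb, with 2-fold limits dotted. Most neighbours lie near 0, while *Tph1* near *Ptpn5*, *Faim2* near *Aqp5* and *Faim3* near *Pigr* stand apart. The point of *Trim46* overlies that of *Muc1* in the plot, though the genes do not overlap.

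Markers of epithelium were higher in *miR-21-/-* tissue as well, which bears on every gene of the ductal lining. All 9 pan-epithelial markers, each above 1 FPKM, had a higher value, with a median log2 ratio of 0.50. This median was −0.13 with the columns scaled to equal sums over all loci and 0.60 with equal sums over named loci. Each scaling shifted the log2 ratios of all loci by the same amount, so the order of the ratios did not change. The keratins *Krt19* (223 and 247 FPKM), *Krt18* (148 and 216 FPKM) and *Krt8* (119 and 197 FPKM) were the most abundant of the 9 markers. Summed over all 9 markers, FPKM was 686 in the first and 925 in the second genotype. Basal and myoepithelial markers were higher too, all 5, with a median of 0.70 and sums of 87.8 and 156 FPKM, from *Krt17* at 0.50 to the oxytocin receptor *Oxtr* at 1.47, with *Krt5* at 0.52. All 4 luminal progenitor markers were higher, with a median of 0.79 and sums of 74.0 and 126 FPKM, from *Aldh1a3* at 0.20 over *Cd14* at 0.75 and *Kit* at 0.84 to *Elf5* at 0.95. Relative to the pan-epithelial median, the log2 ratio was 4.32 for *Ptpn5*, 3.83 for *Olfm4*, 0.84 for *Pigr*, 0.50 for *Muc1*, −0.15 for *Aqp5*, −0.39 for *Cftr* and −1.95 for *Ltf*. For *Olfm4* and *Ptpn5* this difference follows from their choice by the same ratios. The log2 ratio of *Muc1* was above the epithelial median and that of *Aqp5* slightly below it. The part of epithelial content in these values was not tested.
Transcription factors of this epithelium were counted as well. Of 8 Ets, Grainyhead and forkhead factors, 7 exceeded 1 FPKM, 1 of them higher at 2-fold and none lower, beside the same 2.08% and 2.53%, with a median log2 ratio of 0.66, or 0.03 with the columns scaled to equal sums over all loci. *Ehf*, an epithelial Ets factor, had 13.2 FPKM in *miR-21+/+* and 47.7 FPKM in *miR-21-/-* tissue. *Elf5*, the Ets factor of alveolar progenitors, had 18.6 and 36.0 FPKM, and *Foxa1*, a luminal forkhead factor, 29.5 and 23.2 FPKM.

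Other tissues that a gland sample can hold were checked with marker lists. Adipocyte markers, all 6 above 1 FPKM, had a median log2 ratio of −0.40 and sums of 17198 and 13017 FPKM, from *Cidec* at −0.54 to *Lep* at 1.29, with *Fabp4* at −0.48 and *Cfd* at −0.32. Skeletal muscle markers, all 5, had a median of 0.68 and sums of 849 and 1369 FPKM, from *Mylpf* at 0.48 to *Mb* at 1.86, with *Acta1* at 0.68 and *Ckm* at 0.66. The salivary gland also expresses several of the 7 genes, and of 10 of its markers only *Amy1* exceeded 1 FPKM, with 134 and 102 FPKM. The other 9, *Car6* among them with 0.0494 and 0.890 FPKM, stayed below 1 FPKM, and *Psp* was listed at 0. Of 6 lung markers only *Ager*, merged with *Pbx2*, exceeded 1 FPKM, at a log2 ratio of −0.10, and *Sftpd* had 0.571 and 0.759 FPKM. The part of these tissues in the values of the 7 genes was not tested.

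**Figure D4:**
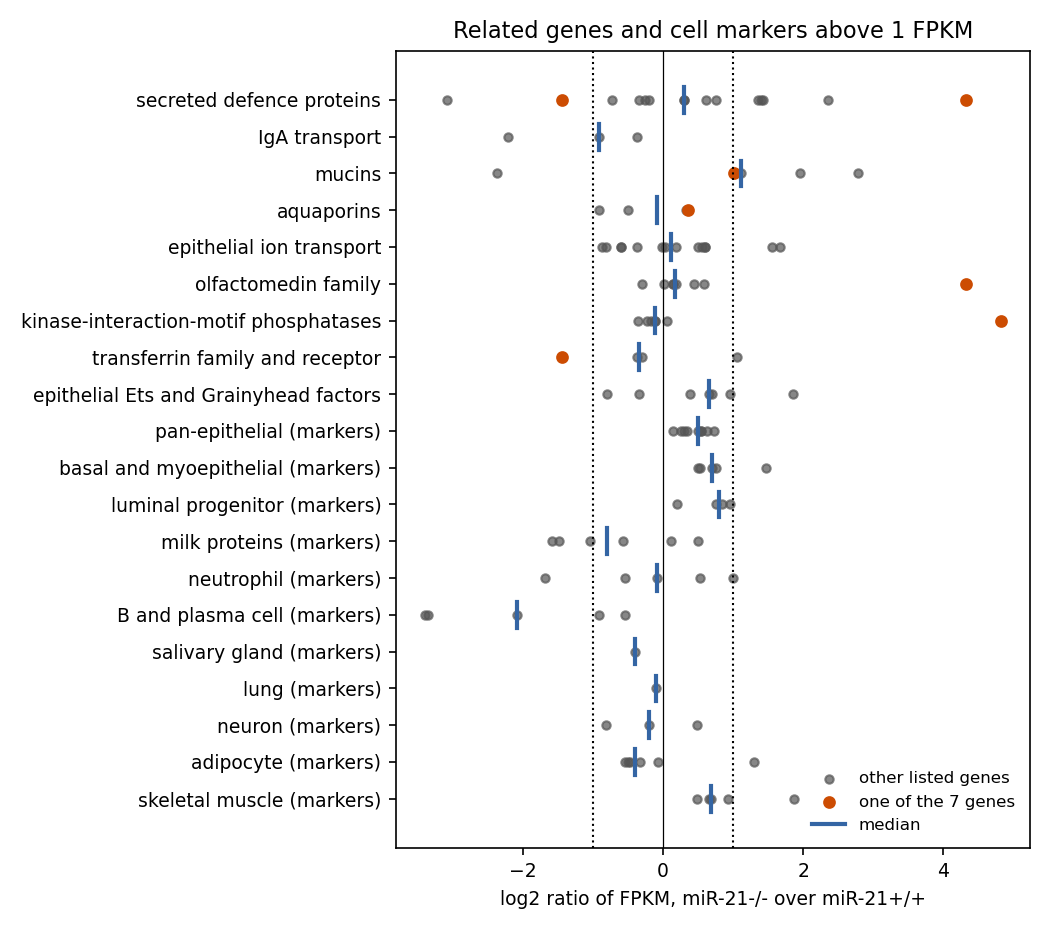
log2 ratio of FPKM (*miR-21-/-* over *miR-21+/+*) of listed genes above 1 FPKM (grey, the 7 genes in orange) with each list's median (blue) and 2-fold limits dotted. The medians of mucins (1.12) and epithelial markers (0.50) lie above 0 and those of milk proteins (−0.80) and B and plasma cells (−2.09) below; scaling the columns to equal sums over all loci lowers every point by 0.63, which takes the epithelial median to −0.13.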

How the data were processed

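Poly(A) RNA of 4 mammary glands was sequenced on a HiSeq 2000. The authors processed single-end reads with CASAVA, aligned them to mm9 with TopHat and deposited FPKM values from Cufflinks, 1 per locus and genotype. Program versions, annotation, strand and normalization options were not given in the sources used here. The deposited columns of fold changes, test statistics, p-values, q-values, test status and significance calls hold the authors' own comparison and were not used. Groups came from the sample titles. Read depth is unknown: of the 2000 lowest loci above 0, at most 34 shared a ratio between genotypes to 2 decimals, so whole reads could not be recovered.

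Each name was given its row of highest mean FPKM, which left 21895 distinct name fields. Log2 ratios were plain ratios. A limit of 2-fold and a minimum of 5 FPKM (1 FPKM for lists) were used, and there was no test, so none was adjusted. Since 7398 annotated gene starts matched the table after adding 1 and 424 as printed, starts are given counting from 1. Coordinates of the 7 genes are those of the deposited loci. Their identifiers, strands and exon counts came from GENCODE vM1, whose start or end of the gene differed from the deposited locus for all but *Pigr*. Named genes were the 7, the 3 loci nearest to *Olfm4* and to *Ptpn5*, in each pathway list those past 2-fold above 5 FPKM and the 3 most abundant, and in each marker list the 2 most abundant and both extremes. Genes named beyond this, the neighbours included, were chosen after their values had been seen. The 7 genes and all lists were chosen with earlier results of these data known. Seed matches came from GENCODE vM1 transcripts, checked against the mm9 genome, and promoters and miR-21 from RefSeq. A comparison of protein sequences within families was not made. Some listed genes are not reported here by name. Alternatives were pseudocounts of 1 and 0.1, 2 scalings, summed rows of a name, other minimums and folds, and, chosen after seeing the data, the epithelial median as reference. In place of a replicate spread, 1.5-fold was the limit for a shift under an alternative. Scripts were tested on artificial data with known ratios and planted motifs. Python 3.11.15, numpy 2.4.6, pandas 2.3.3 and matplotlib 3.10.9 were used.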

Additional observations from a re-analysis of the deposited data

How the results depend on the processing

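No paired analysis was possible because both mice of a genotype share 1 FPKM value, and leaving out each mouse in turn was not run for the same reason. FPKM values carry no depth, which leaves the precision of low values such as those of *Cftr* and *Pigr* unknown. With a pseudocount of 1 the log2 ratio was 2.53 for *Olfm4*, 2.58 for *Ptpn5* and 0.37 for *Pigr*. A pseudocount of 0.1, scaling to equal sums over named loci, summed rows of a name and the epithelial median as reference moved none of the 7 genes by over 1.5-fold. Scaling to equal sums over all loci lowered every log2 ratio, to 4.19 for *Ptpn5*, 3.70 for *Olfm4*, 0.72 for *Pigr*, 0.37 for *Muc1*, −0.28 for *Aqp5*, −0.51 for *Cftr* and −2.08 for *Ltf*. The list medians were then 0.49 for mucins, 0.0263 for Ets and Grainyhead factors, −0.33 for secreted defence proteins, −0.47 for the olfactomedin family and −0.61 for ion transport. They were −0.72 for aquaporins, −0.75 for the phosphatases and their partners, −1.01 for the transferrin family and −1.54 for the immunoglobulin genes listed with *Pigr*. Under this scaling 0 of the 7 genes were higher at 2-fold, since *Olfm4* and *Ptpn5* fell under the minimum of 5 FPKM and *Muc1* under 2-fold, while 19 named loci were higher and 883 lower. At 3-fold *Ltf* was no longer counted, which left 0 lower genes. Over all named loci, 368 were higher and 413 lower at 1.5-fold, 36 and 64 at 3-fold, 277 and 337 with a minimum of 1 FPKM, and 1260 and 1436 with none. With 8mer sites alone, 0 of the 7 genes had a seed match.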
